A study of Mus musculus with 2 samples.

Results

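Neurexins, neuroligins and Lrrtm proteins are adhesion molecules that meet across the synaptic cleft. The measurements below cover 9 of the 55536 genes in the deposited tables and all 65 of their annotated transcripts. The genes were taken by symbol: the neurexins Nrxn2 and Nrxn3, the neuroligins Nlgn1, Nlgn2 and Nlgn3, and Lrrtm1, Lrrtm2, Lrrtm3 and Lrrtm4. Other neurexin genes were not analysed here. The libraries hold polyadenylated RNA of hippocampus from C57BL/6 mice, strain B6NCrl, aged 6 months. The group holds 2 libraries, labelled biological replicates 1 and 2, each made from 20 ng of RNA by Nextera tagmentation. The tissue samples are separate but carry 1 donor identifier, so it is not stated that they came from separate animals, and any spread between them may be technical. There is no second condition, treatment or allele. The animals are described as male, while the field for sex reads as not collected.

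Neurexins sit mainly on the presynaptic side. Each neurexin gene makes a long alpha protein and a short beta protein from separate start sites, and each carries exons that are used in some transcripts and skipped in others. Neuroligins and Lrrtm proteins sit on the postsynaptic side and bind neurexins in the cleft. In cultured neurons and in mice, neuroligin 1 is found mainly at excitatory synapses, neuroligin 2 mainly at inhibitory ones, and neuroligin 3 at both. Lrrtm proteins are leucine-rich repeat proteins of excitatory synapses. Lrrtm1 and Lrrtm2 bind neurexins that lack the insert of splice site 4, and Lrrtm4 binds heparan sulfate chains on glypicans and neurexins.

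The optional exons that these partners read are short, and that of Nrxn3 is shown because the 90 bases at splice site 4 affect which ligands bind. It is given on GRCm38 (mm10) from the GENCODE M21 annotation, 5′ to 3′ on the strand of the gene, with no base marked. The exon lies at chr12:90199147-90199236 on the plus strand, is coding and holds 30 codons.
Nrxn3 90-base exon: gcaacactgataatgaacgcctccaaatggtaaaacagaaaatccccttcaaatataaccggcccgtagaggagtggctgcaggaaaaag

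The neuroligins carry an optional insert at the site named A in their extracellular domain. It is shown because the TPM share of the annotated transcripts that hold it differed between genes and libraries. The 60-base coding exon of Nlgn1, from the same annotation, lies at chr3:25920178-25920237 on the minus strand. Nlgn3 has 2 such exons, at chrX:101303072-101303131 and chrX:101307075-101307134 on the plus strand, and Nlgn2 has a 51-base exon at chr11:69830563-69830613 on the minus strand. The Nlgn1 exon was identical to the second Nlgn3 exon at 43 of 60 bases, or 71.7%, and to the first at 16 of 60. Capitals mark the bases at which the Nlgn1 exon and the second Nlgn3 exon differ, and the remaining exons have none marked.
Nlgn1 60-base exon: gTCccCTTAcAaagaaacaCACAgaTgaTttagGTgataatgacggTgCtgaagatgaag
Nlgn3 second 60-base exon: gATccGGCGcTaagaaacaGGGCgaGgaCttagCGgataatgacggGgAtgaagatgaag
Nlgn3 first 60-base exon: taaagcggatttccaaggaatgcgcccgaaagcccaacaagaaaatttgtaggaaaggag
Nlgn2 51-base exon: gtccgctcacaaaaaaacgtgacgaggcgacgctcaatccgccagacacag

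All 9 genes were detected in both libraries, at 8.39 to 96.0 TPM (a level scaled for transcript length and depth), with a median of 19.3 TPM. Over the 14356 genes with a mean of at least 1 TPM, the median was 10.8 TPM. Nlgn3, Lrrtm1 and Nrxn2 were the highest, and Nlgn2 was the lowest. In bulk tissue, fewer cells of a type and less RNA per cell cannot be told apart. The gene tables held 38921671 expected reads in replicate 1 and 39499357 in replicate 2. Neuron markers, from Snap25 at 1513 and 1767 TPM to Gad2 at 32.3 and 28.1 TPM, summed to 3551 TPM in replicate 1 and 4137 TPM in replicate 2, with 0 of 7 called different. Glia and vessel markers, from Aldoc at 1291 and 1357 TPM to Pdgfra at 9.96 and 9.85 TPM, summed to 2672 TPM in replicate 1 and 2823 TPM in replicate 2, with 0 of 8 called. Markers of choroid plexus and ependyma summed to 15259 TPM in replicate 1 and 151 TPM in replicate 2, with 3 of 5 called higher in replicate 1. Among these were Ttr, the transthyretin carrier of choroid epithelium, at 14956 and 117 TPM, Kcnj13, a potassium channel of that epithelium, at 159 and 3.65 TPM, and the folate receptor Folr1 at 105 and 6.04 TPM. The ciliary factor Foxj1 was the lowest of the list, at 3.16 and 2.23 TPM, and was not called. The rule, given below, called 2.41% of all genes tested, so lists this short with 0 called say little.

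Among the presynaptic receptors, Nrxn2 had the higher level at the gene. Nrxn2 was at 82.5 TPM in replicate 1 and 86.2 TPM in replicate 2, a mean of 84.3 ± 2.64 (SD, n = 2). Nrxn3 was at 36.5 TPM in replicate 1 and 38.6 TPM in replicate 2, a mean of 37.6 ± 1.47. The 2 genes did not overlap in either program. Nrxn2 therefore held 69.2% ± 0.166 of the summed TPM of the pair. In reads the order was the other way, with 3172 and 3170 expected counts for Nrxn2 and 5274 and 4574 for Nrxn3, or 39.2% ± 2.39 of the pair for Nrxn2. Over transcripts annotated with a complete coding sequence the order also turned, and Nrxn2 held 46.3% ± 0.512 of the TPM of the pair.

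Among the neuroligins, Nlgn3 led. Nlgn3 was at 89.5 TPM in replicate 1 and 103 TPM in replicate 2, a mean of 96.0 ± 9.27. Nlgn1 was at 18.4 and 20.3 TPM, a mean of 19.3 ± 1.32. Nlgn2 was at 8.35 and 8.43 TPM, a mean of 8.39 ± 0.0566. The 3 genes kept this order, with no overlap, in both libraries and both programs. Nlgn3 held 77.6% ± 0.817 of the neuroligin TPM, Nlgn1 15.6% ± 0.278 and Nlgn2 6.80% ± 0.540. In expected counts the share of Nlgn3 was 69.4%, and over complete coding transcripts it was 58.0% ± 6.86.

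Lrrtm1 stood above the other Lrrtm genes. It was at 79.8 TPM in replicate 1 and 90.3 TPM in replicate 2, a mean of 85.0 ± 7.44, or 67.8% ± 2.83 of the family. Lrrtm2 followed at 16.7 and 17.7 TPM, a mean of 17.2 ± 0.728. Lrrtm4 was at 13.9 TPM in replicate 1 and 10.3 TPM in replicate 2, and Lrrtm3 at 10.8 and 11.0 TPM. The order of Lrrtm4 and Lrrtm3 differed between the libraries, so they cannot be ranked. In the order of all 9 genes, neighbours also overlapped at the top, where the range of Lrrtm1 overlapped those of Nlgn3 and Nrxn2. The second program put Nrxn2 at 71.2 and 70.7 TPM and Lrrtm1 at 63.3 and 69.1 TPM, so these did not overlap there.

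**Figure D1:**
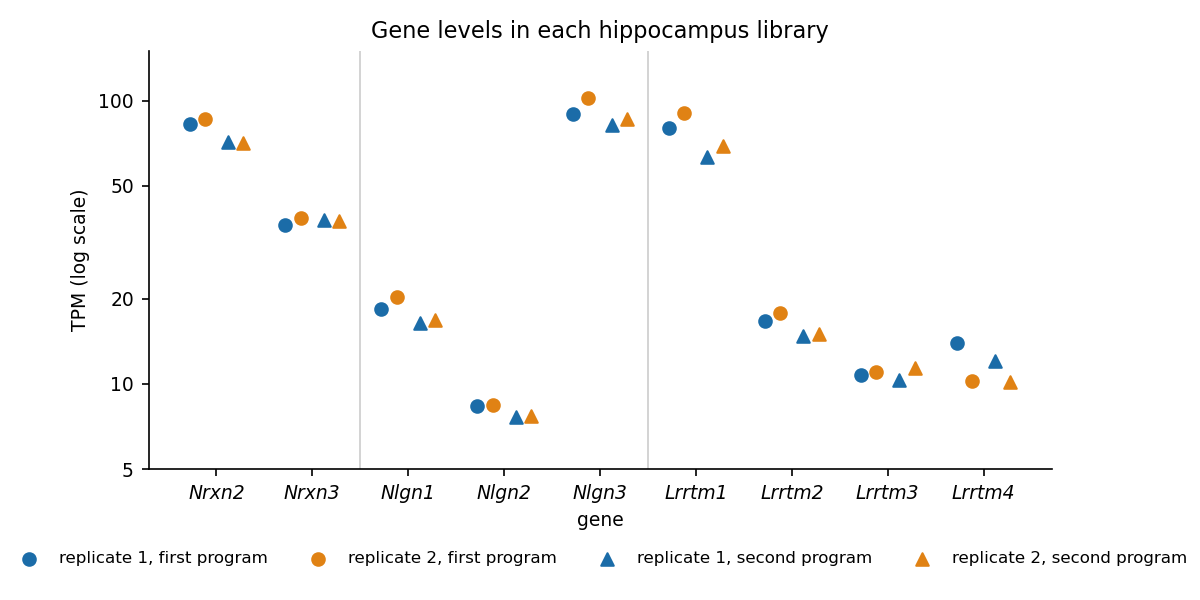
TPM of each gene (log axis) in replicate 1 and replicate 2, as circles for the first program and triangles for the second, with vertical lines between the families. Nlgn3, Lrrtm1 and Nrxn2 lie highest and Nlgn2 lowest in both programs, and Lrrtm4 is the gene with the widest gap between the libraries.

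The transcripts behind these levels were of unequal kind. Of the 65 transcripts, 33 have a complete coding sequence, 6 an incomplete one, 3 are annotated for nonsense-mediated decay, 9 retain an intron and 14 are processed transcripts with no coding sequence. Of all 65, 15 had 0 expected reads in both libraries, and 30 held a mean of at least 5% of their gene in either program. Nlgn1 and Nlgn2 were almost wholly complete coding transcripts, with 99.8% and 99.7% of the TPM for Nlgn1 in replicates 1 and 2, and 100% and 96.9% for Nlgn2. Nrxn2 was the lowest, at 25.5% and 22.5%, and Nlgn3 was at 50.6% and 31.4%. By the first program, the complete coding share was higher in replicate 1 for 8 of the 9 genes. Lrrtm3 was the exception at 63.7% and 69.2%, but by the second program it was at 54.0% and 52.1%. Over the 11887 genes tested with 2 or more transcripts, at least 1 complete coding, the first program's share was higher in replicate 1 for 48.3%. It was lower for 38.4% and equal for 13.3%, and 16.4% had a mean share under 50%.

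**Figure D2:**
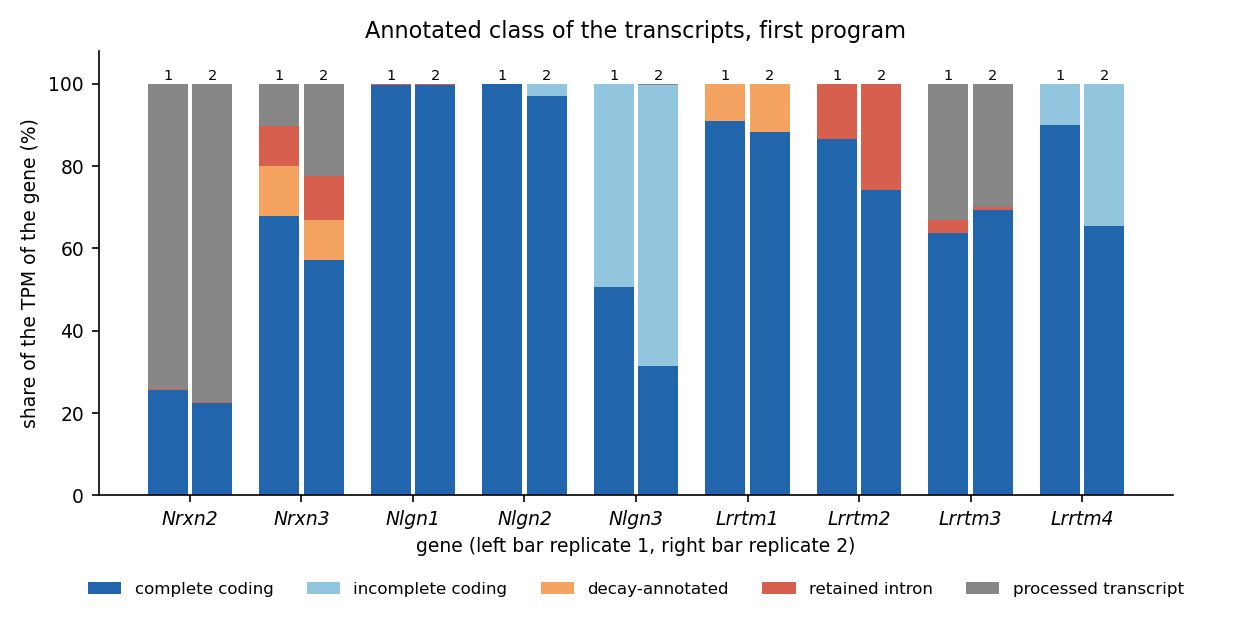
Share of the TPM of each gene (percent) by annotated transcript class in the first program, with replicate 1 as the left bar and replicate 2 as the right bar of each pair. Processed transcripts fill most of Nrxn2, an incomplete coding transcript fills 49.4% and 68.2% of Nlgn3, and Nlgn1 and Nlgn2 are nearly all complete coding.

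Most of the Nrxn2 level came from 1 short transcript at the 3′ end of the gene. Nrxn2-213 is a processed transcript of 576 bases in 3 exons of 44, 79 and 453 bases, the last at chr19:6531844-6532296. It took 60.1 TPM in replicate 1 and 65.4 TPM in replicate 2, or 72.9% and 75.8% of the gene. The second program gave 48.8 and 51.6 TPM. In reads it was a smaller part, with 778 of 3172 and 883 of 3170 expected counts. The first program's own error for these counts, the SD of its posterior, was 17.8 and 16.7 reads.

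The exon structure of Nrxn2-213 differs from that of the short forms of the gene. Its last exon begins at base 6531844, 576 bases downstream of the start at 6531268 used by Nrxn2-202, the leading beta transcript. The same downstream start is used by the long forms Nrxn2-201, Nrxn2-216 and Nrxn2-218, of which Nrxn2-201 was at 1.78 TPM in replicate 1 and 2.11 TPM in replicate 2 and the others were at 0. Over these transcripts and those with the upstream start, the downstream start held 77.9% ± 2.40 of the TPM by the first program and 74.7% ± 3.49 by the other. Most of that downstream TPM was Nrxn2-213. In expected counts Nrxn2-213 held 778 and 883 and Nrxn2-201 321 and 388. Nrxn2-202, with the upstream start, held 1864 and 1691. The antisense gene Gm14964 and the oppositely oriented transporter gene Slc22a12 share 207 and 682 exon bases with Nrxn2. Gm14964 held 47.2 and 45.8 reads and Slc22a12 22.0 and 20.5. Whether the counting used strand is not given in the sources used here, so reads of overlapping genes on opposite strands cannot be assigned with certainty.

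Long and short neurexins were mixed differently in the 2 genes. A complete coding transcript was called long at 1000 amino acids or more, which gave 6 long and 2 short transcripts of Nrxn2 and 3 long and 2 short of Nrxn3. The long transcripts of Nrxn2 summed to 2.81 TPM in replicate 1 and 3.13 TPM in replicate 2, and the short ones to 18.2 and 16.2 TPM. The short form was thus 6.49 times the long one in replicate 1 and 5.19 times in replicate 2. The long share of Nrxn2 was 14.8% ± 1.99 (SD, n = 2), and the second program gave 14.2% ± 2.77.

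In Nrxn3 the forms were nearer to each other. The long transcripts summed to 12.6 TPM in replicate 1 and 9.63 TPM in replicate 2, and the short ones to 12.2 and 12.5 TPM. The long form was above the short one in replicate 1 and below it in replicate 2, so the 2 forms could not be ranked. The long share was 47.2% ± 5.14, against 42.0% ± 2.90 by the second program, where the short form was the higher in both libraries. In expected counts the long share was 67.2% for Nrxn3 and 22.8% for Nrxn2. The long share of Nrxn3 was above that of Nrxn2 in each library and program.

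**Figure D3:**
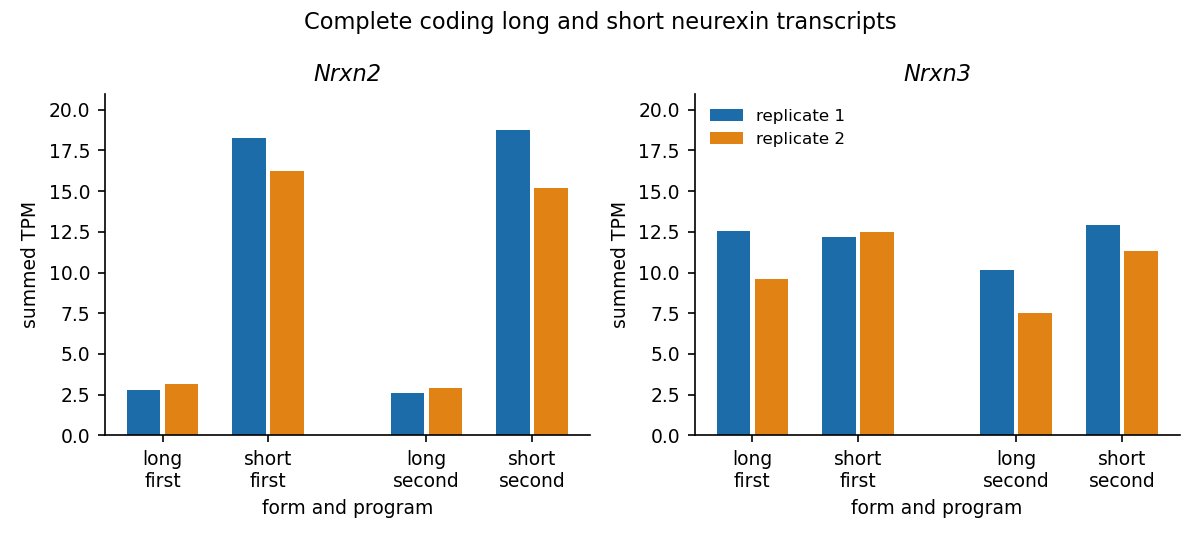
Summed TPM of complete coding long (1000 amino acids or more) and short transcripts of Nrxn2 and Nrxn3, in replicate 1 and replicate 2, by program. In Nrxn2 the short bars stand at 15.2 to 18.8 TPM over long bars of 2.62 to 3.13 TPM, and in Nrxn3 long and short bars lie between 7.53 and 12.9 TPM.

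The complete coding transcripts of the neurexins ranged widely in level. The beta transcript Nrxn2-202, of 660 amino acids, was at 18.2 TPM in replicate 1 and 16.2 TPM in replicate 2. For Nrxn3, the alpha transcript Nrxn3-205, of 1571 amino acids, was at 11.6 and 8.87 TPM. The beta transcript Nrxn3-202, of 567 amino acids, was at 10.7 and 8.02 TPM. The programs named different leading transcripts for Nrxn3, with Nrxn3-205 first in one and Nrxn3-202 in the other. Nrxn3-203, a beta form of 430 amino acids without the 90-base exon, was at 1.47 TPM in replicate 1 and 4.46 TPM in replicate 2, and the second program gave 0.150 and 2.36 TPM. Its expected counts were 114 and 354, with posterior SDs of 33.0 and 53.1 reads.

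Further Nrxn3 transcripts without a complete coding sequence held 5% or more of the gene. Those annotated for decay, Nrxn3-208 and Nrxn3-213, were at 2.48 and 1.92 TPM and at 1.95 and 1.80 TPM. Nrxn3-204, which retains an intron, was at 3.31 and 3.92 TPM. The processed transcript Nrxn3-212, of 528 bases, was at 2.08 TPM in replicate 1 and 6.41 TPM in replicate 2, and Nrxn3-206, of 673 bases, was at 0.40 and 0.67 TPM, with 2.63 and 4.01 TPM in the second program. Both lie at the 5′ end of the gene and count with the long forms when all transcripts are sorted by their 5′ end. Sorted in that way, 67.2% of the Nrxn3 TPM and 5.17% of the Nrxn2 TPM were upstream of the short start.

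The annotated starts of the long Nrxn3 transcripts are spread. Nrxn3-205 begins at base 88794504 of chromosome 12 and Nrxn3-201, of 1100 amino acids and at 0.94 and 0.76 TPM, at base 88953399, while the decay-annotated Nrxn3-208 and Nrxn3-213 begin at bases 88723109 and 88722986. Both short forms, Nrxn3-202 and Nrxn3-203, begin at 1 base, 89812483, and the window around it is shown because the beta form starts there. It is from RefSeq on GRCm38.p6, chr12:89812233-89812532 on the plus strand, 250 bases before to 50 bases after the start, with every CG dinucleotide in capitals.
Nrxn3 short form: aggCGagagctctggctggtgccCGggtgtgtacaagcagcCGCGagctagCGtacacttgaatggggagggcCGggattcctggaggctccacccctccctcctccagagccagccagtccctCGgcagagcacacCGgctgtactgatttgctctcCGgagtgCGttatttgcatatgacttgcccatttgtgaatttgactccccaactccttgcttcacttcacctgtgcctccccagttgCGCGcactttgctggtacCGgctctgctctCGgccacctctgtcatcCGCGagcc

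The window holds 16 CG dinucleotides and 60.7% GC, and 67.0% of the 32851 RefSeq promoter windows of this length hold fewer. CG reads the same on both strands, 94.6% of all windows hold at least 1, and the median window holds 7 with 52.7% GC. This is a count of letters and says nothing of which factors bind. Of the 9 genes, 6 have a window in the table.

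The 90-base exon of splice site 4 was present in most complete neurexin transcripts. In Nrxn2, transcripts with the exon summed to 20.2 TPM in replicate 1 and 18.3 TPM in replicate 2, and those without to 0.840 and 1.06 TPM. The share with the exon was 96.0% and 94.5%, and the second program gave 96.9% and 95.9%. In Nrxn3, transcripts with the exon summed to 23.3 and 17.6 TPM, and the 1 complete transcript without it, Nrxn3-203, to 1.47 and 4.46 TPM. The share with the exon in Nrxn3 was 94.1% in replicate 1 and 79.8% in replicate 2, and 99.4% and 87.5% in the second program. The ranges of the 2 genes did not overlap by the first program, where Nrxn2 was the higher, but did by the second.

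Among the long forms alone, the 90-base exon was in 70.1% of the Nrxn2 TPM in replicate 1 and 67.4% in replicate 2. Nrxn2-204 lacks it. In Nrxn3 it was in 100% of that TPM, which the annotation fixed, since no complete long Nrxn3 transcript without it is annotated. The decay-annotated Nrxn3-213, which skips it, was at 1.95 and 1.80 TPM. Over all Nrxn3 transcripts that span it, long and short, the share with the exon was 88.3% and 75.8%. The high share of Nrxn2 as a whole came from its beta transcript Nrxn2-202. Only 1 annotated short Nrxn2 transcript lacks the exon, Nrxn2-203 of 353 amino acids, at 0 and 0.04 TPM. Its last exon also begins 11073 bases downstream of that of Nrxn2-202, so the share depends on which forms are annotated. In Nrxn2, a 72-base exon was in 70.1% of the long-form TPM in replicate 1 and 67.4% in replicate 2. The same transcripts hold a 27-base exon at chr19:6488784-6488810, so it had the same shares, and the second program gave 77.2% and 75.7% for each of these exons. The 90-base exon is held by the same long transcripts, so these shares are a single split of Nrxn2-204 from the rest. A 24-base exon, counted together with a 45-base version from the same start, was in 36.7% and 32.6%. Nrxn2-204, which holds it, was at 0.84 and 1.02 TPM, and Nrxn2-201, which skips it, at 1.78 and 2.11 TPM. These 2 transcripts also differ in the start of the last exon, so use of each exon alone was not measured. In Nrxn3, a 27-base exon at chr12:89517906-89517932 was in 7.47% and 7.89% of the complete long-form TPM, but in 17.0% and 19.2% over all transcripts that span it. These shares rest on 2.81 and 3.13 TPM for the long forms of Nrxn2 and on 12.6 and 9.63 TPM for those of Nrxn3.

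By the TPM of the annotated transcripts that hold them, the neuroligin inserts ran from rare to nearly constant. The latter was in Nlgn2, where no complete transcript without the exon is annotated. In Nlgn1, transcripts with the 60-base exon were at 10.9 TPM in replicate 1 and 8.45 TPM in replicate 2, and those without it at 7.44 and 11.8 TPM. The share with the exon was thus 59.5% in replicate 1 and 41.8% in replicate 2, and the second program gave 60.2% and 43.5%. Only Nlgn1-205 and Nlgn1-203 held 5% or more of the gene. The share is therefore the split between these whole transcripts, and use of the exon alone was not measured. Nlgn1-205, of 843 amino acids and 11807 bases, also holds a 27-base extension of another exon, at chr3:25439865-25439891, which Nlgn1-203, of 814 amino acids and 3013 bases, lacks. By TPM the leading transcript of Nlgn1 therefore changed between the libraries in both programs. In expected counts Nlgn1-205 led in both, with 85.6% of the gene in replicate 1 and 74.4% in replicate 2. The expected counts of Nlgn1-203 were 649 and 1049, each with a posterior SD of 33 reads, so the gap between the libraries was wider than the error of assignment.

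**Figure D4:**
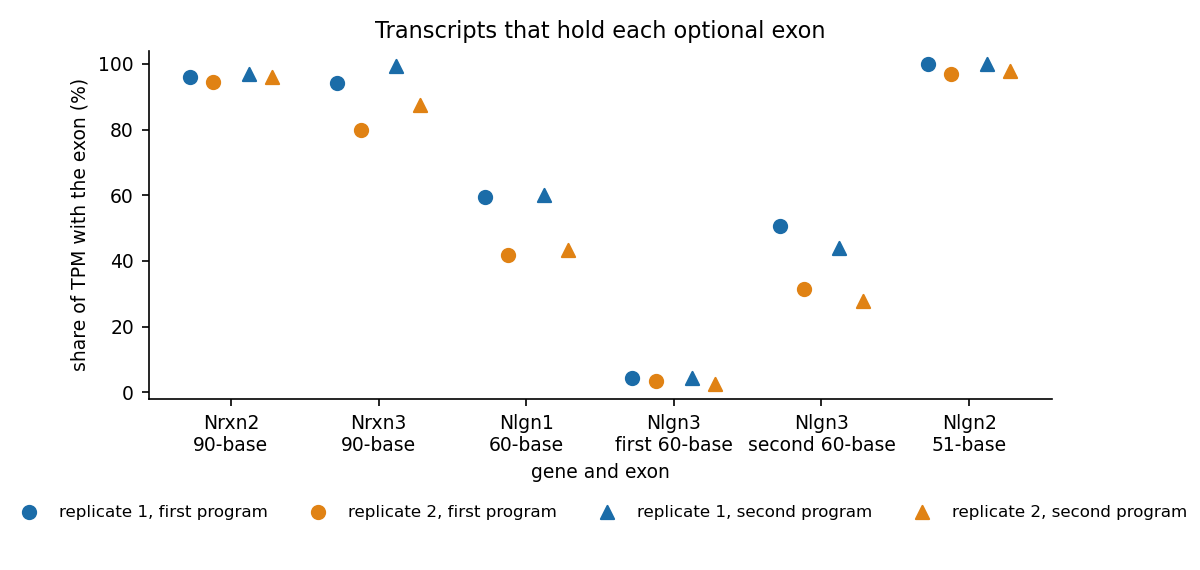
Share of TPM (percent) of the transcripts spanning each optional exon that hold it, in replicate 1 and replicate 2, as circles for the first program and triangles for the second; the neurexin and Nlgn1 exons are over complete coding transcripts and the Nlgn3 and Nlgn2 exons over all. The Nrxn2 and Nlgn2 exons are near the top and the first Nlgn3 exon near 0, while the Nrxn3, Nlgn1 and second Nlgn3 exons lie lower in replicate 2. No complete Nlgn2 transcript without the exon is annotated.

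By TPM the leading transcript of Nlgn3 was one that holds neither insert. Nlgn3-203 has 1852 bases and 510 amino acids, its annotated coding sequence is incomplete at the 3′ end, and it is the only Nlgn3 transcript annotated as skipping both 60-base exons. It took 44.2 TPM in replicate 1 and 70.0 TPM in replicate 2, or 49.4% and 68.2% of the gene, and 45.7 and 61.8 TPM in the second program. In reads it held 2291 of 13723 and 3717 of 11949 expected counts, or 16.7% and 31.1%, and Nlgn3-201 led with 70.2% and 45.6%. The complete transcript Nlgn3-201, of 825 amino acids, was at 38.0 TPM in replicate 1 and 21.1 TPM in replicate 2. The second program gave it 20.7 and 12.3 TPM.

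The remaining complete forms of Nlgn3 were lower. Nlgn3-206, of 845 amino acids and with both inserts, was at 4.04 and 3.46 TPM. Nlgn3-202, of 711 amino acids, was at 3.22 TPM in replicate 1 and 7.69 TPM in replicate 2, against 11.8 and 9.21 TPM in the second program. Its expected count of 771 in replicate 1 had a posterior SD of 383 reads, so its level was poorly fixed. Over all transcripts, the second 60-base exon was in 50.6% of the TPM in replicate 1 and 31.5% in replicate 2, and the first in 4.52% and 3.38%. Only Nlgn3-203 is annotated as skipping the second exon, so that share is the split between this shorter transcript and the complete ones. Over complete coding transcripts alone, the first exon was in 8.93% in replicate 1 and 10.7% in replicate 2. Gm21986, a processed transcript on the same strand, shares 3823 bases with the exons of Nlgn3, or 41.2% of them, and held 30.8 and 27.9 reads, so reads in that stretch are uncertain between the 2 records.

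Nlgn2 had 2 transcripts that encode proteins of the same length, 836 amino acids. Nlgn2-201 was at 4.99 TPM in replicate 1 and 1.89 TPM in replicate 2, and Nlgn2-202 at 3.36 and 6.29 TPM. The second program put Nlgn2-201 at 2.18 TPM and 0 and Nlgn2-202 at 5.46 and 7.57 TPM. The split between them thus depended on both library and program, while their sum hardly moved. The 51-base exon was in 100% and 96.9% of the Nlgn2 TPM, a share that depends on which forms are annotated. No complete Nlgn2 transcript without it is annotated. The only transcript that skips it is Nlgn2-203, an incomplete one of 784 bases, with 0 expected reads in replicate 1 and 5.18 in replicate 2.

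Lrrtm1 was carried by transcripts of 1 protein length, 522 amino acids. Lrrtm1-202 was at 49.99 TPM in replicate 1 and 55.6 TPM in replicate 2, and Lrrtm1-203 at 22.46 and 24.05 TPM. Lrrtm1-201, annotated for decay, was at 7.32 and 10.7 TPM. All 3 were higher in replicate 2, and their order was the same in both libraries and programs.

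Lrrtm2 was split between forms of 515 and 268 amino acids. Lrrtm2-201, the longer, was at 6.97 TPM in replicate 1 and 6.39 TPM in replicate 2, and Lrrtm2-203, the shorter, at 7.50 and 6.76 TPM. Lrrtm2-202, which retains an intron, was at 2.23 and 4.58 TPM, and led the gene in replicate 2 in the second program with 6.32 TPM. For Lrrtm3, the complete transcript Lrrtm3-201, of 582 amino acids, was at 6.86 and 7.63 TPM and the processed transcript Lrrtm3-202, of 545 bases, at 3.57 and 3.29 TPM. That share of the Lrrtm3 level rested on few reads, 42.9 in replicate 1 and 41.4 in replicate 2.

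Lrrtm4 has proteins of 518 to 519 and of 590 to 591 amino acids, and the shorter ones prevailed. They summed to 11.9 TPM in replicate 1 and 5.72 TPM in replicate 2, and the longer ones to 0.620 and 1.0 TPM. The shorter proteins thus held 95.1% and 85.1% of the complete coding TPM, and 93.1% and 80.6% in the second program. Among them Lrrtm4-201 was at 7.0 and 2.95 TPM, Lrrtm4-202 at 3.08 and 0.510 TPM, and Lrrtm4-206 at 1.84 and 2.26 TPM. Of the longer ones, Lrrtm4-208 was at 0.560 and 1.0 TPM. Lrrtm4-204, an incomplete transcript of 506 bases, was at 1.19 TPM in replicate 1 and 2.95 TPM in replicate 2 on 12.8 and 33.5 reads. The sum of the shorter complete forms was lower in replicate 2, and Lrrtm4-204 was higher there. Lrrtm4-206 was not lower there by the first program, but the second gave it 0.760 and 0.455 TPM.

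By TPM, the leading transcript was the same in both libraries for 7 of the 9 genes by the first program and for 6 by the second. The 7 include Lrrtm4, where the complete Lrrtm4-201 and the incomplete Lrrtm4-204 tied at 2.95 TPM in replicate 2 and Lrrtm4-201 was taken. The 2 programs named the same leading transcript in each library for 5 genes. For 4 genes, Nrxn2, Nlgn3, Lrrtm1 and Lrrtm3, a single transcript led in both programs and both libraries. In 7 genes of the first program, Lrrtm4 with its tie among them, the leading transcript was complete coding in both libraries. The exceptions were Nrxn2 and Nlgn3.

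The libraries were compared to show how far the levels repeat. Expected counts of replicate 1 and replicate 2 were set against TMM-scaled library sizes by an exact binomial test, two-sided, with Benjamini-Hochberg adjustment over 14078 genes. It covers counting error only and compares these libraries, not conditions. None of the 9 genes was called at an adjusted p under 0.05 and a log2 ratio of at least 1 in size, a rule that called 2.41% of the genes tested. At any ratio, 5 of the 9 genes passed the adjusted p, where 46.8% of all genes did, so that share sits near the background. Nrxn3, Nlgn1, Nlgn3 and Lrrtm4 were higher in replicate 1 and Lrrtm1 was higher in replicate 2. The median log2 ratio of the 9 genes was 0.01 and the median size 0.15, against -0.01 and 0.16 over all genes tested. With edgeR's exactTest at a preset dispersion of 0.01, only Lrrtm4 kept an adjusted p under 0.05, at 0.0128. That preset is smaller than the spread estimated between these libraries, a biological coefficient of variation of 16.6%, so it understates the spread.

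Lrrtm4 was the gene with the widest gap. It had 1335 expected counts in replicate 1 and 788 in replicate 2, a log2 ratio of 0.77 with an adjusted p of 5.15e-32 by the exact binomial test, and a ratio of 1.70. The size of its ratio was at the 95.7th percentile of all genes tested. The choroid plexus and ependymal markers were higher in the same library, by a median log2 ratio of 4.44 over 5 genes, and their part in the Lrrtm4 difference was not tested. Nrxn2 and Nlgn2 differed least, at log2 ratios of 0.01 and -0.05 with adjusted p of 0.893 and 0.468 by that test. Lrrtm1 had 5888 and 6849 expected counts, a log2 ratio of -0.21 with an adjusted p of 2.36e-15 by the same exact binomial test.

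**Figure D5:**
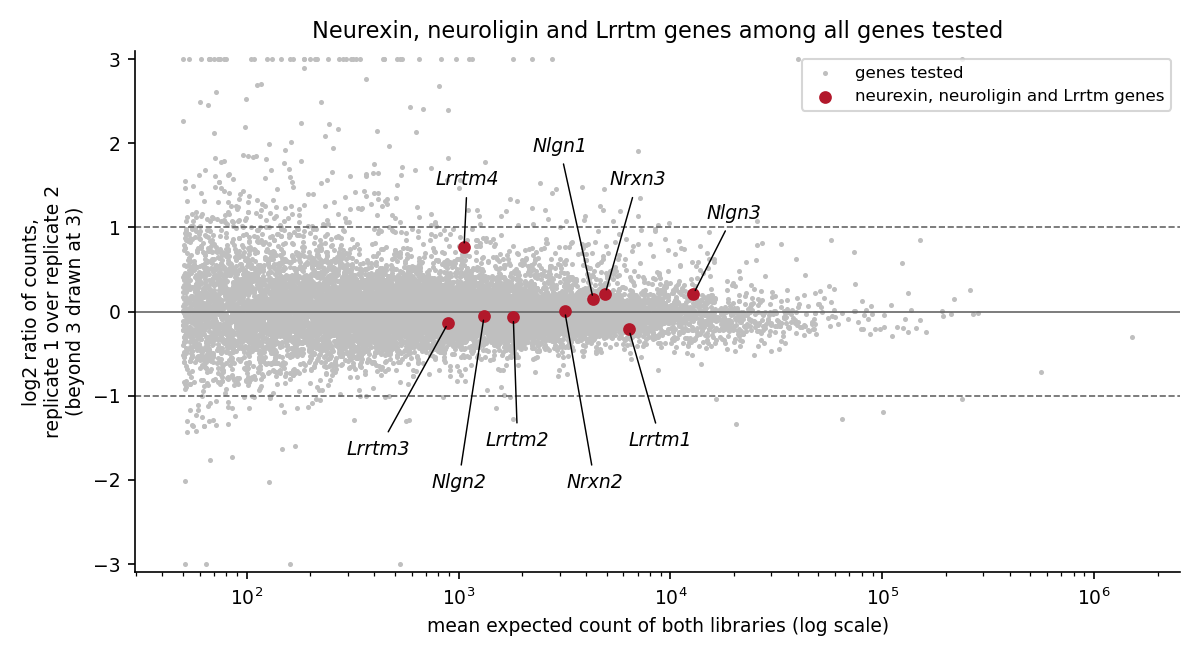
Log2 ratio of counts, replicate 1 over replicate 2, against the mean expected count (log axis) for all 14078 genes tested in grey, drawn at 3 where larger in size, with the 9 genes in red and dashed lines at a ratio of 1 in size. All 9 genes lie between the dashed lines, and Lrrtm4 is the nearest to the upper one, at 0.77.

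For some genes the count and the level per length moved in opposite directions between the libraries. Nlgn3 had 13723 expected counts in replicate 1 and 11949 in replicate 2, a log2 ratio of 0.21, while its TPM ratio was -0.20 on the same scale. Nrxn3 had a count ratio of 0.21 and a TPM ratio of -0.08, and Nlgn1 0.15 and -0.14. The mean effective length that the first program used for Nlgn3 was 5033 bases in replicate 1 and 3753 bases in replicate 2. For Nlgn1 it was 8082 and 6539 bases, and for Nrxn3 4739 and 3817 bases. With Nrxn2, whose count ratio was near 0, the signs were opposite in 4 of 9 genes, or 44.4%, against 11.6% of 14072 genes tested. Lrrtm4 was higher in replicate 1 on both scales, at 0.77 in counts and 0.44 in TPM.

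The position of the Lrrtm genes allows a comparison with the catenin genes around them. Lrrtm1, Lrrtm2 and Lrrtm3 each lie inside an alpha-catenin gene on the opposite strand, Ctnna2, Ctnna1 and Ctnna3, which encode links between cadherins and actin. Ctnna2, the neuronal catenin, was at 11.1 TPM in replicate 1 and 13.0 TPM in replicate 2, below the 79.8 and 90.3 TPM of Lrrtm1. Ctnna1 was at 29.7 and 22.5 TPM, above the 16.7 and 17.7 TPM of Lrrtm2. Ctnna3 was at 0.740 and 0.840 TPM, on 73 reads in each library, below the 10.8 and 11.0 TPM of Lrrtm3. The nested gene was thus the higher in 2 of the 3 pairs, with no overlap in any. Exon bases were shared only by Lrrtm2 and Ctnna1, 95 of them.

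Gene size spanned a wide range among the 9. Nrxn3 covers 1612060 bp of chromosome 12, longer than 99.9% of the genes tested, Nlgn1 906246 bp of chromosome 3 and Lrrtm4 791267 bp of chromosome 6. At the other end Lrrtm2 covers 6022 bp of chromosome 18, Nlgn2 14663 bp of chromosome 11 and Lrrtm1 15103 bp of chromosome 6. Nrxn2 covers 125439 bp of chromosome 19, Lrrtm3 161806 bp of chromosome 10 and Nlgn3 26796 bp of chromosome X. The 3 genes with the highest levels, Nlgn3, Lrrtm1 and Nrxn2, are all shorter than Lrrtm3, but so are Lrrtm2 and the gene with the lowest level, Nlgn2.

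Other partners of the neurexins were measured from a list of 17 genes, of which 15 matched a record and 14 were tested. The test called 0 higher in replicate 1 and 2 higher in replicate 2, where it called 2.41% of all genes tested. C1ql2, a secreted C1q-like ligand, was the highest at 97.7 TPM in replicate 1 and 98.0 TPM in replicate 2, and the neurexophilin Nxph4 the lowest at 0.450 and 0.760 TPM. The called genes were both cerebellins, a family of secreted synapse organizers. Cbln4 was at 3.86 and 9.36 TPM, a log2 ratio of -1.30, and Cbln1 at 0.540 and 1.49 TPM, a log2 ratio of -1.35. Cbln2 went the other way, at 11.8 and 6.20 TPM with a log2 ratio of 0.93, and was not called.

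Against 2.41% of all genes tested, 1 of 7 presynaptic adaptors was called higher in replicate 1 and 0 higher in replicate 2. This was Cask, a scaffold that binds the neurexin tail, at 29.6 TPM in replicate 1 and 12.4 TPM in replicate 2, a log2 ratio of 1.21. The highest was Lin7b, a partner of Cask, at 171 and 176 TPM, and the lowest Caskin1, a Cask-binding protein, at 8.15 and 8.77 TPM. The choroid plexus and ependymal markers were higher in the library with more Cask, and their part in it was not tested.

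None of 9 postsynaptic partners, 7 tested heparan sulfate and receptor phosphatase partners of Lrrtm proteins or 6 splicing regulators was called. The rule takes adjusted p and ratio together and called 2.41% of all genes tested. Of the postsynaptic partners, Mdga1, an inhibitor of neuroligin binding, was the lowest at 3.06 TPM in replicate 1 and 3.13 TPM in replicate 2. Of the Lrrtm partners, the phosphatase Ptprs was the highest at 149 and 195 TPM and the glypican Gpc2 the lowest at 0.100 and 0.0800 TPM. Of the regulators, Khdrbs3, an RNA-binding protein known in mice to promote skipping of the neurexin splice site 4 exon, had the highest mean, at 38.2 and 45.3 TPM. Ptbp2 was at 41.8 TPM in replicate 1 and 38.3 TPM in replicate 2, so their order differed between the libraries and they cannot be ranked. Nova2 was the lowest at 3.25 and 3.06 TPM. The median log2 ratios of these 3 lists were -0.01, -0.17 and 0.04.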

How the data were processed

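Hippocampal polyadenylated RNA was quantified in 2 libraries against mm10 and M21, per the README text deposited with them. For neither program is a name or version given in the sources used here. The first (RSEM column layout, per the file headers) gave the deposited expected counts, TPM, FPKM and the SD of the posterior count, which gave the error of assignment, and the second (kallisto column layout) estimated counts and TPM per transcript. The 26345 rows outside the annotation held 2.31e-05% and 1.64e-05% of reads and were left out; all 55536 gene rows matched.

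Expected counts were rounded. Library sizes were TMM-scaled (factors 1.005 and 0.995; edgeR 4.0.16, R 4.3.3). Genes with a mean count of at least 50 were compared by an exact conditional binomial test, two-sided, with Benjamini-Hochberg adjustment, and called at an adjusted p under 0.05 and a log2 ratio of at least 1 in size (prior count 0.5). With 1 group, no quasi-likelihood test between conditions was possible. The biological coefficient of variation was 16.6%, so counting error understates the spread. On simulated counts of this comparison over 14089 genes, the test recovered 100 of 100 genes changed by a log2 ratio of 1.5 and 100 of 100 changed by 3, and called 0 of 13889 unchanged genes; those libraries held counting error only. Shares are of TPM, given as mean and SD of 2 libraries. Optional exons are internal coding exons held by some transcripts of a gene and spliced out of others.

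The genes and lists were chosen with earlier results of these data known. The text names all 9 genes, their transcripts with a mean of at least 5% of the gene in either program, the 3 host genes, and the highest, lowest and called genes of each list, with further members as values; some items that this takes are not reported here. Tests ran in scipy 1.17.1 and tables in pandas 2.3.3, under Python 3.11.15, and plots were drawn with matplotlib 3.10.9. The alternatives were other scalings, count minimums, prior count, test and program, FPKM, TPM without mitochondrially encoded genes, other transcript sets, and each library alone.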

Additional observations from a re-analysis of the deposited data

How the results depend on the processing

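None of the 9 genes was called between the libraries under any of the 7 alternatives. Over all genes, 339 were called, against 716 with a mean count of at least 10 and 713 with no minimum, settings that test more genes. Of the 9 genes, 5 had an adjusted p under 0.05 at any ratio. With edgeR's exactTest 1 did, at a preset dispersion below the spread estimated between the libraries. Of 63 recomputed log2 ratios of these genes, 57 stayed on their side of the threshold, 4 lost it under that exactTest and 2 gained it in the second program, and none that passed changed sign. Their summed level was 371 TPM, against 320 TPM in the second program, 291 FPKM and 414 TPM without mitochondrially encoded genes. The share of Nrxn2 in its family, 69.2%, was 39.2% in expected counts, 65.3% in the second program, and 46.3% and 48.5% over complete coding transcripts of the first and second program, a set chosen after seeing the data. The share of Nlgn3, 77.6%, was 69.4% in expected counts and 58.0% and 54.7% over those transcripts. That of Lrrtm1, 67.8%, was 62.7% in expected counts, 64.2% in the second program and 71.2% over complete coding transcripts. The long share of Nrxn2, 14.8%, was 22.8% in expected counts, and by 5′ end 5.17% and 5.34% in the first and second program. That of Nrxn3, 47.2%, was 42.0% in the second program, 67.2% in expected counts, and by 5′ end 67.2% and 67.8%. The exon 90 bases long was in 95.3% of Nrxn2, against 96.4% in the second program. The cause of these shifts was not tested, except that expected counts weight each transcript by its length. With either library left out, summed levels, family shares and long shares moved by less than the SD between libraries, as 2 libraries give by construction. No paired analysis was possible because there is 1 group. The depth limits transcripts of few reads, such as Lrrtm3-202 and Lrrtm4-204.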
